A study of Homo sapiens with 6 samples.

Results

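A set of 10 genes that are induced by ERK signalling and that report on or restrain it were followed in HCT116 cells: DUSP4, DUSP5, DUSP6, SPRY2, SPRY4, SPRED1, SPRED2, ETV4, ETV5 and PHLDA1. They were taken from the deposited gene table by symbol, and all 10 of 10 were found among its 30676 genes. HCT116 is an established human colorectal cancer line, labelled wild type in genotype. The cells were kept at 1% oxygen for 24 hours with 10 µM GIA, which the series describes as a genistein isoflavonoid alkaloid, or with 0.1% DMSO as the vehicle control, with 3 libraries in each group. Both groups were hypoxic and no normoxic group was analysed here, so the effect of low oxygen itself cannot be read from these libraries. Nothing in the labels ties the replicate libraries to separate cultures, and p-values therefore cover only the scatter among these libraries, which may be technical.

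The ERK pathway carries growth signals from receptors through RAS, RAF and MEK to the kinases ERK1 and ERK2, which switch on a set of genes within hours. Several of those genes encode brakes on the same pathway: dual-specificity phosphatases remove the activating phosphates from ERK, and Sprouty and SPRED proteins act upstream at the level of receptors, RAS and RAF. ETV4 and ETV5 are ETS transcription factors of the PEA3 group, whose amounts follow ERK activity. The transcripts of these genes are often read as a measure of pathway output.

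Libraries held 55725249 to 67835059 estimated counts, with the 3 GIA totals above the 3 DMSO totals. Of the epithelial markers checked for the colorectal label, KRT8, KRT18 and KRT19 were abundant (134 to 151, 219 to 274 and 26.2 to 29.9 FPKM over the 6 libraries). The defining epithelial genes EPCAM, at 0.119 to 0.335 FPKM, and CDH1, which encodes E-cadherin, at 0.0165 to 0.0490 FPKM, were close to 0 in every library, and CDX2 and ESRP1 had no row in the table used here. Of 8 fibroblast markers 4 passed the filter on low values, led by DCN at 11.2 to 16.0 FPKM, and VIM, chosen after these values were seen, had 147 to 160 FPKM. PTPRC, the pan-leukocyte marker, was at most 0.0162 FPKM. Of the 7 leukocyte markers CD68 alone passed the filter, at 17.0 to 24.6 FPKM, and no endothelial marker passed it. The near absence of EPCAM and CDH1 goes against the labelled colorectal cell type as an epithelial one, in both groups alike, and the line is named here as the labels name it.

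No member differed between GIA and DMSO by the test. With edgeR's quasi-likelihood test and an adjusted p threshold of 0.05, 0 of the 10 members were called, against 0% of the 13721 genes tested. All 10 members passed the filter of a mean of at least 0.5 FPKM (fragments per kilobase, scaled to library size). At an unadjusted p under 0.05 there was 1 member, SPRED2, against 4.59% of all tested genes, and it lay in the higher direction, as did 2.65%. The members' log2 fold changes, GIA over DMSO, had a median of -0.02, with 4 positive and 6 negative, and the median over all tested genes was 0.00038. For 8 members the 95% interval did not reach 1.5-fold in either direction, and for all 10 it did not reach 2-fold, compared with 83% and 92.9% of tested genes.

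**Figure D1:**
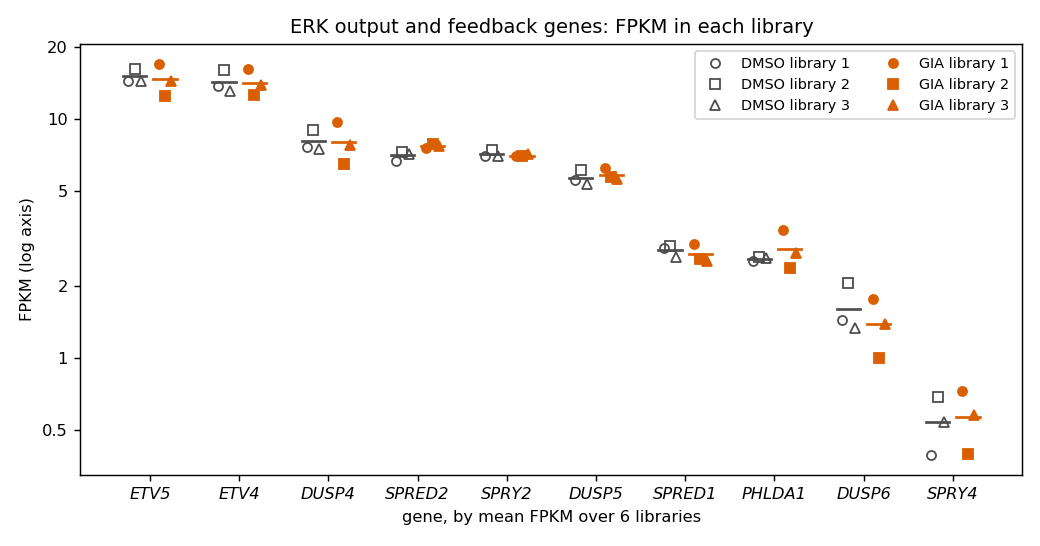
FPKM of each of the 10 genes on a log axis, with DMSO libraries as open grey symbols, GIA libraries as filled orange symbols, the library number given by the symbol shape, and lines at the group means. ETV5 and ETV4 stand highest and SPRY4 lowest, and the GIA and DMSO libraries overlap for each gene other than SPRED2.

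Levels spanned a wide range in steps. ETV5 (mean 14.8 FPKM over 6 libraries) and ETV4 (14.2) stood highest, and their ranges overlapped. DUSP4 (8.01), SPRED2 (7.36) and SPRY2 (7.06) formed the next step, also with overlapping neighbours, followed by DUSP5 at 5.75, which lay below SPRY2 in 6 of 6 libraries. SPRED1 (2.76) and PHLDA1 (2.72) could not be separated by their ranges. DUSP6, at 1.49, and SPRY4, at 0.55 FPKM, were the lowest, each below its upper neighbour in 6 of 6 libraries. SPRY4 rested on 157 to 354 estimated counts per library and DUSP6 on 286 to 506, while ETV5 had 5081 to 7299.

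Promoter sequence was available for 6 of the members in the RefSeq table for GRCh38.p14, and for 5 of them (DUSP6, SPRY2, SPRED1, SPRED2 and PHLDA1) the start site was the one in the deposited table. The 250 bases before that start were searched on both strands for CGGAA, called the core here. It is 1 form of the site that ETS factors such as ETV4 and ETV5 bind. CGGAA was present in DUSP6, SPRY2 and PHLDA1 and in 30.3% of all 35116 windows, and SPRED1 and SPRED2 had no match to it. GGAA after a base other than C was not counted, and the SPRED2 stretch below holds such letters (tggaag and aggaag). A lack of CGGAA is therefore not a lack of ETS sites. Neither the longer ETS motif CCGGAAG, which contains the core (8.52% of windows), nor the AP-1 motif TGANTCA (6.57%), nor the CIC motifs TGAATGAA (1.4%) and TGAATGGA (0.832%) matched in these 5. Stretches of 30 bases are shown for the 3 with a match, DUSP6 and PHLDA1 as members that varied between the GIA libraries and SPRY2 as the steadiest, beside 200 bases of SPRED2, the member whose groups did not overlap. Capitals mark the core on either strand, and all are written 5′ to 3′ on the minus strand, which is the gene's strand.
DUSP6 (chr12:89352635-89352664): atccggagCGGAAattcctTTCCGtttttg
PHLDA1 (chr12:76031807-76031836): aggggaacgagcgCGGAAgcaagtgggcgg
SPRY2 (chr13:80341251-80341280): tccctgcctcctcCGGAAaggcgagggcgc
SPRED2 (chr2:65432650-65432849): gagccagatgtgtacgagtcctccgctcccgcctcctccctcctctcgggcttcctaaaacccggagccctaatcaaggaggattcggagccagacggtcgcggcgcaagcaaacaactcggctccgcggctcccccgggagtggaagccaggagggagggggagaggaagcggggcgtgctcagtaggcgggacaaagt
The core was present in members that varied between libraries and in SPRY2, which varied least, and a match is a description of the letters only.

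Among the phosphatases, DUSP6 is the cytoplasmic, ERK-selective member and a commonly used readout of ERK activity. DUSP6 (chromosome 12, 89347235 to 89352501, minus strand) had 1.43, 2.05 and 1.33 FPKM in DMSO libraries 1 to 3 and 1.76, 0.997 and 1.38 in GIA libraries 1 to 3. DMSO library 2 was the highest and GIA library 2 the lowest, and the groups overlapped. GIA over DMSO gave -0.22 on the log2 scale (SE 0.23; 95% interval from -0.75 to 0.31; edgeR adjusted p = 0.893), a value that shrank to -0.0036 when DMSO library 2 was left out and to -0.03 when GIA library 2 was. Leaving out DMSO library 3 gave -0.34 and leaving out GIA library 1 gave -0.44. By limma on log2(FPKM + 1) it was -0.13. DUSP4, a nuclear phosphatase of ERK and other MAP kinases (chromosome 8, 29333064 to 29350684), had 7.65, 9.01 and 7.49 FPKM with DMSO and 9.65, 6.49 and 7.79 with GIA. Both its highest and its lowest value were in GIA libraries, 1 and 2, so the DMSO values lay inside the GIA range. The log2 fold change of DUSP4 was -0.01 (SE 0.13). DUSP5, a nuclear phosphatase specific for ERK (chromosome 10, 110497907 to 110511533), had 5.56, 6.08 and 5.35 FPKM with DMSO and 6.20, 5.69 and 5.61 with GIA, a log2 fold change of 0.04 (SE 0.09). DUSP5 varied least of the 3 phosphatases, with a coefficient of variation of 5.66% over the 6 libraries against 14.2% for DUSP4 and 24.6% for DUSP6.

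The Sprouty and SPRED inhibitors included the steadiest and the least steady member. SPRY2, a feedback inhibitor of receptor signalling (chromosome 13, 80335976 to 80341126), had 6.99, 7.37 and 6.98 FPKM with DMSO and 6.96, 6.97 and 7.10 with GIA. Its coefficient of variation was 2.28%, at the 6.06th percentile of tested genes, and its log2 fold change of -0.02 (SE 0.06) had a 95% interval of -0.16 to 0.12. SPRY4, a second inhibitor of the family (chromosome 5, 142310427 to 142326455), had 0.390, 0.683 and 0.535 FPKM with DMSO and 0.724, 0.397 and 0.573 with GIA. Low and high values of SPRY4 were present in both groups, and the coefficient of variation was 25.4%. Its log2 fold change of 0.07 (SE 0.27) had a 95% interval of -0.53 to 0.67. With DMSO library 1 or GIA library 1 left out, SPRY4 took the opposite sign, at -0.11 and -0.15. By limma on log2(FPKM + 1) it was 0.025.

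SPRED2 was the member whose groups did not overlap. SPRED proteins bind neurofibromin and bring it to RAS at the membrane. SPRED2 (chromosome 2, 65310851 to 65432599, minus strand) had 6.66, 7.29 and 7.12 FPKM in DMSO libraries 1 to 3 and 7.54, 7.87 and 7.67 in GIA libraries 1 to 3, so each GIA value lay above each DMSO value. A gap of this direction was present in 5.63% of tested genes, and in 11.2% in either direction. The log2 fold change of 0.13 (SE 0.05) had a 95% interval of 0.02 to 0.24, with an unadjusted p of 0.0294 and an adjusted p of 0.875 by edgeR, which did not pass. The unadjusted p was 0.0996 with DMSO library 1 left out, 0.0591 with DMSO library 3, 0.0641 with GIA library 2 and 0.0766 with GIA library 3. The difference of the group means on the log2 CPM scale (counts scaled to the library total), 0.13, was about as large as the range among the DMSO libraries, also 0.13. SPRED1 (chromosome 15, 38252836 to 38357249) had 2.88, 2.94 and 2.64 FPKM with DMSO and 2.99, 2.59 and 2.54 with GIA. Its groups overlapped, with GIA library 1 the highest of all and GIA libraries 2 and 3 the lowest, and its log2 fold change was -0.06 (SE 0.08); leaving out GIA library 1 gave -0.14, DMSO library 3 -0.11, DMSO library 2 or GIA library 2 -0.03 and GIA library 3 -0.02.

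ETV4 and ETV5 had almost the same profile. ETV4 (chromosome 17, 43527844 to 43546340) had 13.7, 16.1 and 13.1 FPKM with DMSO and 16.1, 12.6 and 13.8 with GIA. ETV5 (chromosome 3, 186046314 to 186110318) had 14.4, 16.2 and 14.4 FPKM with DMSO and 17.0, 12.5 and 14.4 with GIA. For both factors DMSO library 2 and GIA library 1 were high, GIA library 2 was the lowest, and the groups overlapped. The log2 fold changes were -0.02 (SE 0.10) for ETV4 and -0.04 (SE 0.10) for ETV5. ETV4 lies opposite DHX8, which had a mean of 6.52 FPKM, and the sources used here do not say whether the counting used strand.

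PHLDA1, a pleckstrin-homology domain protein induced by growth factors and often included in ERK output signatures (chromosome 12, 76025447 to 76031776, minus strand), differed in spread between the groups. It had 2.53, 2.63 and 2.62 FPKM with DMSO and 3.43, 2.37 and 2.75 with GIA. The DMSO libraries lay close together, while the GIA libraries held both the highest and the lowest value. The log2 fold change of 0.13 (SE 0.12) had a 95% interval of -0.14 to 0.41 and an adjusted p of 0.881 by edgeR, and leaving out GIA library 2 or GIA library 1 gave 0.25 and -0.02. The difference in spread was not tested. Over all tested genes the median range was also larger among the GIA libraries, at 0.17 log2 units against 0.13 with DMSO.

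**Figure D2:**
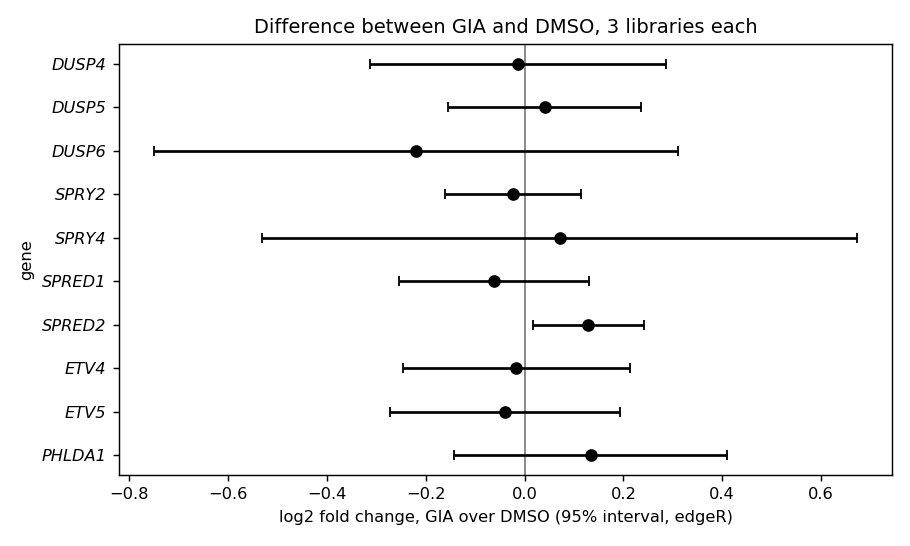
Log2 fold change of each gene, GIA over DMSO, as a point with its 95% interval from edgeR on 3 libraries a group. The interval of SPRED2, 0.02 to 0.24, lies above 0 before adjustment for the number of genes, and those of DUSP6 and SPRY4 are the widest.

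For 10 of 10 members the range among the libraries of at least 1 group was larger than the difference of the group means. For SPRED2 these values were nearly equal, at 0.132 and 0.130 log2 units. The same count was not made over all tested genes, so it cannot be read as particular to the members. On the log2 CPM scale, relative to each gene's own 6-library mean, the average of the 10 members was 0.20 in GIA library 1 and 0.16 in DMSO library 2, and -0.20 in GIA library 2. The other libraries lay between, at -0.08 in DMSO library 1, -0.06 in DMSO library 3 and -0.01 in GIA library 3. In GIA library 1, 9 of 10 members were above their own mean, and in GIA library 2, 1 was above it and 9 were below. Of all tested genes 51.3% were above their own mean in GIA library 1 and 50.9% in GIA library 2. The exceptions were SPRY2, which was slightly below its mean in GIA library 1, and SPRED2, which was above its mean in GIA library 2. DMSO library 2 was the highest DMSO library for 10 of 10 members, where 33% of tested genes had that order.

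**Figure D3:**
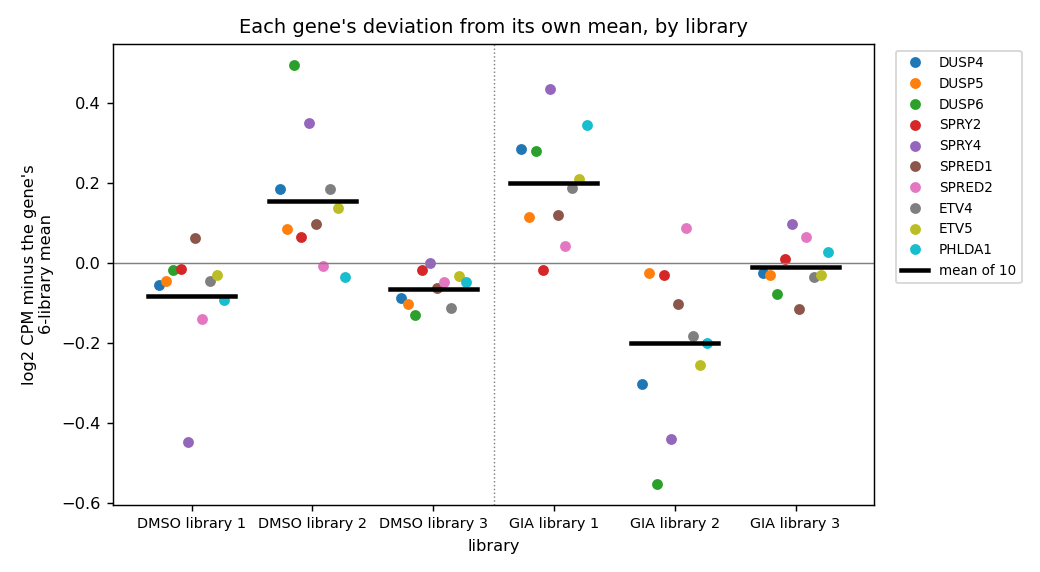
Log2 CPM of each gene minus its mean over the 6 libraries, by library, with the average of the 10 genes as a black bar. The bar stands at 0.20 in GIA library 1, 0.16 in DMSO library 2 and -0.20 in GIA library 2.

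The FPKM of GIA library 1 was 1.77 times that of GIA library 2 for DUSP6, 1.83 times for SPRY4, 1.49 times for DUSP4 and 1.45 times for PHLDA1. ETV5 and ETV4 had ratios of 1.37 and 1.28, SPRED1 and DUSP5 1.15 and 1.09, and SPRY2 and SPRED2 0.998 and 0.957. The median range between libraries of a group was 0.42 log2 units for the members with GIA and 0.17 for all tested genes, and 0.18 and 0.13 with DMSO. If 1 fragment is worth 4 counts, counting error alone would give a coefficient of variation of 10.1% for DUSP6, where 24.6% was observed, and of 3.16% for DUSP4, where 14.2% was observed. For SPRY2 and DUSP5 the observed values, 2.28% and 5.66%, were no larger than the 5.07% and 6.32% that counting would give.

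GIA library 2 also differed in other genes. It held the highest or the lowest value of the 6 libraries for 29.6% and 23.9% of tested genes, more often than any other library. The summed FPKM of the 6 epithelial markers in the table was 382 in GIA library 2 and 431 to 452 in the others, with KRT18 at 219 against 255 to 274 and KRT8 at 134 against 147 to 151. The lower sum came from those keratins: KRT19 (27.7 against 26.2 to 29.9), CLDN4 (0.911) and EPCAM (0.294 against 0.119 to 0.335) lay inside the range of the other libraries. The 6 fibroblast markers in the table summed to 25.3 FPKM there and to 18.5 to 20.5 in the others. Most of that sum was DCN, at 16.0 FPKM against 11.2 to 13.1, and COL1A1 and PDGFRB were also highest there. FAP (0.661) and THY1 (0.0374) were instead at their lowest of the 6 libraries, and COL3A1, a defining fibroblast gene, was at 0 in 5 libraries and at 0.00766 FPKM in GIA library 2. GIA library 1, where the members were highest, had the highest epithelial sum (452), and its fibroblast sum of 18.5 FPKM was level with that of DMSO library 2. In such bulk samples fewer cells of a type and less RNA per cell cannot be told apart. The part of these marker differences in the members' values was not tested.

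Leaving out GIA library 1 lowered the log2 fold change of every member except SPRED2 (from 0.13 to 0.14) and SPRY2 (from -0.023 to -0.021), and leaving out GIA library 2 raised that of every member except SPRED2 (to 0.12). Without GIA library 1 the median log2 fold change of the members was -0.13 and 9 of 10 were negative, where 49.8% of tested genes were negative. Without GIA library 2 the median was 0.07 with 7 of 10 positive, and without DMSO library 2 it was 0.08 with 8 of 10 positive. The median was -0.05 without DMSO library 1 or DMSO library 3 and -0.00092 without GIA library 3. No member was called in any of these fits; the smallest adjusted p of a member was 0.471, for SPRED2 without GIA library 1. DUSP4 changed sign when DMSO library 2 (0.08) or GIA library 2 (0.12) was left out, and was 0.000015 when GIA library 3 was. ETV4 changed sign for the same pair of libraries (0.08 and 0.07), as did ETV5 (0.02 and 0.07). With GIA library 1 left out, DUSP4 had -0.18, ETV4 -0.12 and ETV5 -0.17. SPRY4 had 0.28 without DMSO library 2 and 0.27 without GIA library 2. For DUSP5, leaving out GIA library 1 gave -0.0091, DMSO library 3 -0.0002 and DMSO library 2 0.10, and SPRY2 had 0.0046 without DMSO library 2. PHLDA1 had an unadjusted p of 0.0232 without GIA library 2, with an adjusted p of 0.963 by edgeR. SPRED2 stayed positive in all 6 fits, from 0.09 without DMSO library 1 to 0.16 without DMSO library 2.

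**Figure D4:**
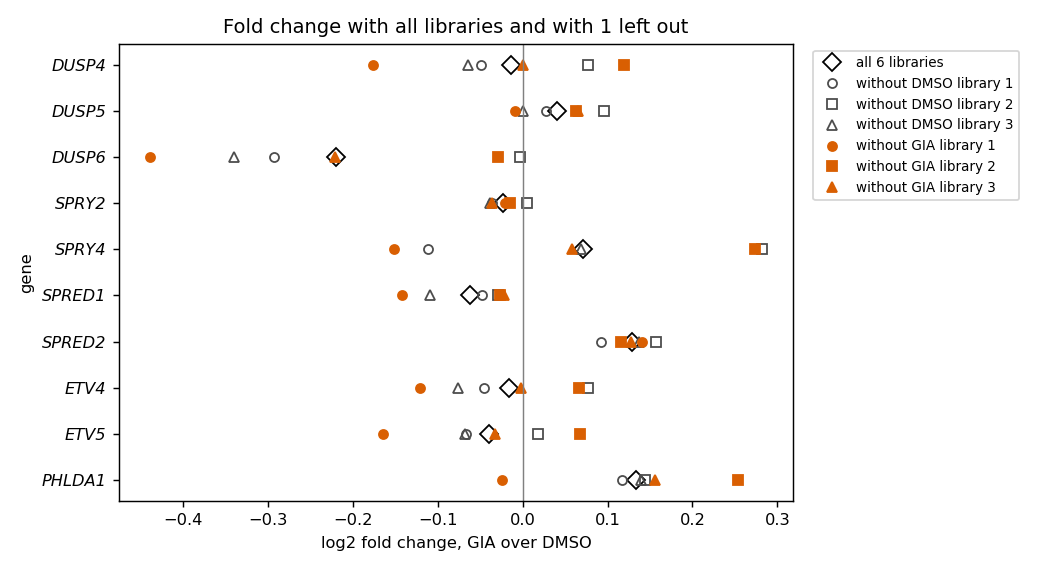
Log2 fold change of each gene with all 6 libraries (black diamonds) and with 1 library left out (open grey symbols for DMSO, filled orange for GIA, shape by library number). Values without GIA library 1 lie to the left for most genes, down to -0.44 for DUSP6, while SPRED2 stays between 0.09 and 0.16.

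Ratios between related members were also compared, since a ratio within a library leaves out what both genes share. ETV4 over ETV5 was the steadiest, at 0.949, 0.993 and 0.907 with DMSO and 0.945, 1.01 and 0.957 with GIA. SPRED1 over SPRED2 was 0.432, 0.404 and 0.371 with DMSO and 0.396, 0.328 and 0.331 with GIA, a difference of -0.20 log2 units. DUSP6 over DUSP4 was 0.188, 0.228 and 0.178 with DMSO and 0.182, 0.154 and 0.177 with GIA, also -0.20 log2 units, which was -0.10 without DMSO library 2 and -0.13 without GIA library 2. SPRY2 over SPRY4 ranged from 9.61 to 17.9, with GIA library 1 the lowest and DMSO library 1 the highest. By exact two-sided permutation tests over the 6 libraries p was 0.5 for ETV4 over ETV5, 0.7 for SPRY2 over SPRY4, and 0.2 for each of the other two, with 0.4 the smallest value after adjustment over the 4 ratios. The smallest p that 3 against 3 libraries allow is 0.1.

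The rest of the pathway was described with fixed lists, and 0 of their tested genes were called in either direction. The RAS to ERK cascade had 18 of 18 genes tested, with 9 positive and 9 negative and a median log2 fold change of -0.0045. KSR1, a scaffold of the cascade, had 0.21 (SE 0.14) with group means of 0.558 ± 0.0795 FPKM (DMSO) and 0.649 ± 0.0612 FPKM (GIA; SD, n = 3 each), and MAPK3, which encodes ERK1, had 0.09 (SE 0.07). Leaving out DMSO library 2 gave 0.10 for KSR1, and leaving out GIA library 2 gave 0.01 for MAPK3. By limma on log2(FPKM + pseudocount) KSR1 had 0.12 with a pseudocount of 0.5 and 0.08 with a pseudocount of 1. Of 10 upstream inhibitors 8 were positive, with a median of 0.03. NF1, which encodes neurofibromin, had 0.09 (SE 0.04) and ERRFI1, an inhibitor of EGFR, 0.10 (SE 0.06), which was 0.05 without GIA library 3 and NF1 0.06 without GIA library 2. The 13 ETS and CIC factors had a median of 0.04, with CIC, a repressor that ERK relieves, at 0.09 (SE 0.05) and its partner ATXN1 at 0.10 (SE 0.06). CIC was 0.05 without GIA library 1.

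Among the relatives of the members, all 8 other MAP kinase phosphatases were tested, with a median of -0.05. DUSP2 had 2.31, 1.76 and 2.58 FPKM with DMSO and 1.53, 1.83 and 1.71 with GIA, a log2 fold change of -0.40 (SE 0.18; edgeR adjusted p = 0.875), with overlapping groups. DUSP7 had -0.07 (SE 0.06), -0.13 without GIA library 1 and -0.03 without GIA library 2. Of 6 further relatives 4 were tested, each with a negative value and a median of -0.19. The value furthest from 0, -0.53, had an SE of 0.64, and the nearest was -0.01. SPRY1 had -0.31 (SE 0.27), which rested on GIA library 3: its FPKM was 0.682 there and 1.49 to 1.65 in the other libraries, and the log2 fold change without it was -0.0094, and -0.52 without GIA library 1. PHLDA3 had -0.07 (SE 0.05), and -0.02 without GIA library 2. ETV1, the remaining PEA3 factor, was at a mean of 0.0162 FPKM.

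The 20 tested genes of 24 other ERK-induced genes had a median of -0.04, with 8 positive and 12 negative. The immediate-early genes IER2 and JUNB, which had the smallest p of this list, had 0.07 (SE 0.04) and 0.09 (SE 0.06), with IER2 at 0.04 without DMSO library 2 and JUNB at 0.02 without GIA library 2. The mean deviation of the 20 genes was 0.07 in DMSO library 2, 0.06 in GIA library 1 and -0.11 in GIA library 2. In the same libraries the members had 0.16, 0.20 and -0.20. In DMSO library 3 the mean of the 20 genes was 0.0029, where the members had -0.064. In GIA library 2, 14 of the 20 were below their own mean. For the cascade itself the same means were -0.04, -0.02 and 0.01.

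**Figure D5:**
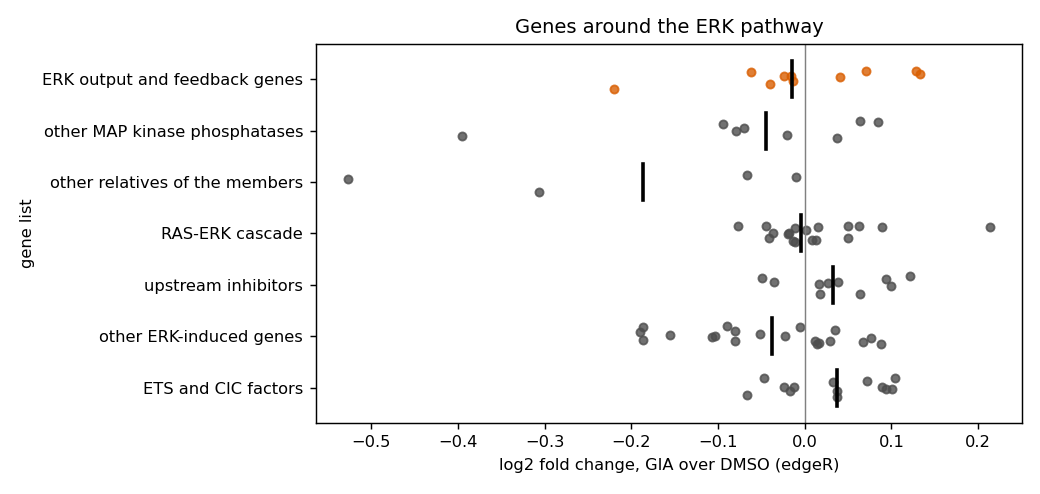
Log2 fold change, GIA over DMSO, of each tested gene in the members and in 5 fixed pathway lists plus the list of their further relatives, with a black line at each median. No gene passed the test, and of the list medians that of the cascade lies closest to 0, at -0.0045.

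The genes whose pattern over the 6 libraries was most like the members' average were sought among 413 other genes with a mean of at least 5 FPKM and at least as much spread. The 5 with the highest Pearson r, given as a description over 6 libraries, were AC244153 (0.98), AC112777 (0.95), UPP1 (0.95), SURF2 (0.94) and EPHA2 (0.93). UPP1, a uridine phosphorylase, and EPHA2, an ephrin receptor, were both on the list of other ERK-induced genes. The share of the 413 genes on that list was not counted, and the list was chosen with earlier results of these data known. EPHA2 had 38.2, 44.3 and 40.5 FPKM with DMSO and 44.2, 33.6 and 37.8 with GIA, and UPP1 had 8.10, 9.20 and 8.43 with DMSO and 9.88, 7.04 and 7.92 with GIA. In both genes GIA library 2 was the lowest, as in DUSP4, DUSP6, ETV4, ETV5 and PHLDA1. The log2 fold changes were -0.09 (SE 0.10) for EPHA2 and -0.05 (SE 0.11) for UPP1, and both changed sign without GIA library 2 (0.0033 and 0.06), UPP1 also without DMSO library 2 (0.0034), while both had -0.20 without GIA library 1.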

How the data were processed

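RNA from 6 libraries was analysed from the table deposited by the authors, which gives an estimated count and an FPKM per gene and library, per the file headers. Per the submitters' processing notes, the tools were StringTie 2.1.6, HISAT2 2.2.1, DESeq2 1.22.2, cutadapt and FastQC 0.10.1, with hg38 and GRCh38 as builds; their roles and the annotation release are not given in the sources used here. Libraries were strand-specific, per the labels' protocols. The deposited counts were rounded to whole numbers before use. A count of 4 (6798 values) was then more frequent than a count of 3 (4183) or 5 (2499), so 1 fragment may be worth about 4 counts. Counts of 1 (6528 values) and 2 (5410) were frequent too, so the worth of 4 is an assumption.

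The 13721 genes averaging 0.5 FPKM or more were tested by edgeR 4.0.16 (R 4.3.3) with its two-sided quasi-likelihood test, TMM scaling (factors 0.997 to 1.01), with Benjamini-Hochberg adjustment over all of them. Alternatives were DESeq2 1.42.0, limma 3.58.1 (log2 FPKM, pseudocounts 0.1, 0.5 and 1), other scalings and filters, counts divided by 4, a replicate block and leaving out each library. Named were the members, the 2 genes of smallest p in each pathway list and the 5 genes most like the members' average. The members and lists were chosen with earlier results of these data known. No pair of libraries held the same values (smallest chi-square per degree of freedom over genes, on counts divided by 4, 2.74).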

Additional observations from a re-analysis of the deposited data

How the results depend on the processing

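The count of 0 called members held under the 10 other tools, pseudocounts, scalings, filters and the block and in the 6 fits that left out a library. SPRED2 alone had an unadjusted p under 0.05 in each of those 10, DESeq2 and limma included, with log2 fold changes of 0.12 to 0.14. No member and none of the other named genes changed sign under those 10, where fitted; the remaining genes of the pathway lists were not refitted for this. By limma with a pseudocount of 1, SPRY4 had 0.025 (0.037 with 0.5), DUSP6 -0.13, DUSP2 -0.25, KSR1 0.082 and ATXN1 0.062, each smaller in size than by edgeR by over 1.5 times. DUSP4 had -0.022 to -0.026 by limma and -0.0058 under the filter at 5 FPKM. Over all tested genes 3 were called with the replicate block and 0 to 5 with a library left out. The numbers share no stated source. After each gene's group mean was subtracted from its log2 CPM, same-numbered libraries had correlations of 0.052, 0.033 and 0.097 over genes. By these values 5 of 6 libraries correlated best with their own number. The exception, DMSO library 2, had 0.035 with GIA library 1 and 0.033 with GIA library 2. The correlations depend on each other, since each group was centred on its own 3 libraries. With the replicate block DUSP6 had -0.23 and PHLDA1 0.12.

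Leaving out each library gave ranges of -0.18 to 0.12 for DUSP4, -0.0091 to 0.10 for DUSP5, -0.038 to 0.0046 for SPRY2, -0.15 to 0.28 for SPRY4, -0.12 to 0.077 for ETV4, -0.17 to 0.067 for ETV5 and -0.024 to 0.25 for PHLDA1. DUSP6 (-0.44 to -0.0036), SPRED1 (-0.14 to -0.02) and SPRED2 (0.09 to 0.16) kept their sign. The ranges were -0.11 to 0.089 for AC244153, -0.083 to 0.15 for AC112777, -0.20 to 0.056 for UPP1, -0.21 to 0.044 for SURF2 and -0.20 to 0.0033 for EPHA2. The ratio differences ranged from -0.0016 to 0.064 for ETV4 over ETV5 and from -0.32 to 0.12 for SPRY2 over SPRY4. The cause was not tested. The mean FPKM of at least 5 left 6 members in the fit. SPRY4 and DUSP6 had the lowest counts of the members and intervals that reach past 1.5-fold. If 1 fragment is worth 4 counts, counting error would give coefficients of variation of 12.7% and 10.1%, where 25.4% and 24.6% were observed; the source of the remaining spread was not tested.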
